A study of Mus musculus with 16 samples.

Results

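Crypt base stem cells and Wnt target activity in the mouse ileum were described here through 10 genes, namely Lgr5, Olfm4, Ascl2, Smoc2, Axin2, Sox9, Lrig1, Rnf43, Znrf3 and Slc12a2. They were taken by symbol from a table of reads counted for 46078 genes, and all 10 were found and passed the filter on low counts in each comparison. RNA from the ileal mucosa was sequenced in 16 mice on a C57Bl/6 strain background, in 4 groups of 4. Mice labelled Slfn3KO carried a whole-body deletion of Slfn3, a Schlafen family gene linked to differentiation of the small intestinal epithelium, and the controls were WT littermates, with females and males in separate groups. The labels give an age of 8 weeks for every mouse, while the methods of the study give an older range. Each library came from a different mouse, so p-values measure the spread between mice. Between 20823279 and 30813117 reads per library were counted on genes, and expression is given in CPM, the count of a gene relative to the library total after scaling by TMM factors.

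The intestinal epithelium is renewed from crypts, where columnar stem cells sit at the base between Paneth cells and feed a zone of dividing progenitors. These stem cells depend on Wnt ligands, which stabilise beta-catenin and let TCF and LEF factors switch on target genes. R-spondins strengthen the signal through Lgr receptors by keeping the ubiquitin ligases Rnf43 and Znrf3 from removing Frizzled receptors, and Axin2, Rnf43 and Znrf3 are themselves targets that damp the pathway as negative feedback. Differentiated enterocytes on the villi largely lack this programme, so that the crypt share of a mucosal sample affects its level in bulk RNA.

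The targeted gene was read out first as a check of the labels. Slfn3 had 0, 0, 0 and 2 counts in female Slfn3KO mice 1 to 4, 1, 4, 7 and 13 in female WT, 1, 0, 0 and 0 in male Slfn3KO and 1, 2, 19 and 0 in male WT. No Slfn3KO library exceeded 2 counts, but WT libraries were also low and male WT 4 had 0, so Slfn3 gave little check of the WT labels. A count of 0 allows up to 3 counts, or at most 0.151 CPM in any library, for counting error only.

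Sex transcripts went against the label in 4 libraries, those labelled female WT 3 and 4 and male WT 3 and 4. Xist, transcribed from the inactive X chromosome, stood at 312, 409, 0.124 and 0 CPM in female WT 1 to 4 and at 0.234, 0.316, 437 and 401 CPM in male WT 1 to 4. The Y-linked helicase gene Ddx3y stood at 0.0502, 0.0847, 42.0 and 49.7 CPM in the same female WT libraries and at 35.5, 45.2, 0 and 0.0416 CPM in the male WT libraries. The other Y-linked genes Kdm5d, Uty and Eif2s3y had the same pattern, and all 8 Slfn3KO libraries followed their labels. Groups were kept as labelled, and the pooled fits of the members and pooled counts of the lists are given with and without these 4 WT libraries. Leaving them out left 2 WT libraries in each labelled sex.

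Levels of the 10 genes were compared with each other only after division by exon length, as RPKM averaged over the 16 libraries. Olfm4, a secreted glycoprotein abundant in crypt base stem cells, had the highest level at 71.8 RPKM. The ion cotransporter gene Slc12a2 followed at 16.6 RPKM and the Wnt feedback gene Axin2 at 16.5 RPKM, with Slc12a2 above Axin2 in 7 of 16 libraries. Smoc2 averaged 9.51 RPKM, Lrig1 6.41, Rnf43 4.75 and Sox9 2.93. Ascl2 averaged 1.36 RPKM, Lgr5 0.798 and Znrf3 0.721. Olfm4 was above Slc12a2 in 16 of 16 libraries, Sox9 above Ascl2 in 16 and Ascl2 above Lgr5 in 16, whereas Lgr5 was above Znrf3 in 7. The steps from Axin2 to Smoc2 and from Rnf43 to Sox9 held in 15 libraries, and those from Smoc2 to Lrig1 and from Lrig1 to Rnf43 in 13. Neighbours in this order that did not differ beyond the spread of their difference were Slc12a2 with Axin2 and Lgr5 with Znrf3. In both pairs the order of the means turned with genotype. Slc12a2 and Axin2 averaged 21.3 and 15.8 RPKM in Slfn3KO but 11.8 and 17.2 in WT. Lgr5 and Znrf3 averaged 1.11 and 0.868 RPKM in Slfn3KO but 0.485 and 0.575 in WT.

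Promoter windows from 250 bases before to 50 bases after the annotated start were at hand in the RefSeq table for GRCm38.p6 for 5 of the genes, Lrig1, Ascl2, Rnf43, Axin2 and Olfm4. The windows of Olfm4, whose level followed that of most other members, and Axin2, whose level did not, are shown because these genes mark the main split within the set. Olfm4 (ENSMUSG00000022026) lies at chr14:80000302-80021930 of mm10 and its window at chr14:80000052-80000351 on the plus strand. Axin2 (ENSMUSG00000000142) lies at chr11:108920349-108950783 and its window at chr11:108920099-108920398 on the plus strand. Capitals mark the 50 bases from the annotated start.
Olfm4 promoter: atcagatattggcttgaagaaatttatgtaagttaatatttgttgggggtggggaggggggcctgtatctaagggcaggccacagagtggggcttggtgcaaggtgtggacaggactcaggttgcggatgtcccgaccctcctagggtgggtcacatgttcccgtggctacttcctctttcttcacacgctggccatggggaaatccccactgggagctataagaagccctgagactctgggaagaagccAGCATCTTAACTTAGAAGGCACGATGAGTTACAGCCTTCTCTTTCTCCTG
Axin2 promoter: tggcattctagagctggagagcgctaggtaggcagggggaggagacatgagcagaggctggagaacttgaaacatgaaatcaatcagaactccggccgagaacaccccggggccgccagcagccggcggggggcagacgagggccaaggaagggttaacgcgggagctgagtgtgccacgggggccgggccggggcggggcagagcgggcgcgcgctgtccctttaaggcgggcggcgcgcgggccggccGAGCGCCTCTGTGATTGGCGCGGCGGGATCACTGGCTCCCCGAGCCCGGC
The letters CTTTGA, the core of a TCF or LEF site, were searched on both strands, where the other strand reads TCAAAG. They were in 0 of the 6 windows of these 5 genes (Rnf43 has 2) and in 5257 of all 32851 promoter windows of the table, or 16.0%. Base composition differed between the shown windows, with 70% G or C and 31 CG dinucleotides for Axin2 and 52.3% and 5 for Olfm4, beside medians of 52.7% and 7 over all windows. These are descriptions of the window and show no binding.

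Lgr5, the R-spondin receptor that marks crypt base columnar stem cells, was measured at 14.4, 18.2, 8.66 and 11.4 CPM in female Slfn3KO mice 1 to 4, 0.502, 6.43, 6.75 and 3.29 in female WT, 12.4, 6.39, 14.5 and 5.23 in male Slfn3KO and 9.98, 6.52, 3.03 and 3.28 in male WT. Every female Slfn3KO library lay above every female WT library, while the male groups overlapped and female WT 1 was far below the other libraries. The pooled log2 fold change of Slfn3KO over WT, with labelled sex as a covariate, was 1.19 (SE 0.42), with an adjusted p of 0.333 by edgeR's quasi-likelihood F test with Benjamini-Hochberg adjustment. Without the WT libraries 3 and 4 it was 0.97 (SE 0.56). Lgr5 (ENSMUSG00000020140) lies at chr10:115450311-115587780, and its reads were counted by strand, apart from the gene A930009A15Rik on the opposite strand.

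Olfm4 was measured at 137, 208, 147 and 164 CPM in female Slfn3KO mice 1 to 4, 19, 127, 90.4 and 43.6 in female WT, 134, 104, 247 and 92.8 in male Slfn3KO and 125, 178, 38.9 and 28.9 in male WT. Female Slfn3KO libraries were again all above female WT libraries, and the highest of all was male Slfn3KO 3. Male WT 1 and 2 lay within the range of the male Slfn3KO libraries, whereas male WT 3 and 4 lay below it. The pooled log2 fold change was 0.93 (SE 0.41) and 0.49 (SE 0.45) without WT 3 and 4, with an adjusted p of 0.386 in all libraries by edgeR's quasi-likelihood F test with Benjamini-Hochberg adjustment. The noncoding gene Gm6999 overlaps Olfm4 on the same strand, so reads in the shared part are uncertain.

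Ascl2, a transcription factor that maintains the stem cell state, had few counts, between 6 and 102 per library. Its level was 3.66, 4.17, 2.33 and 1.97 CPM in female Slfn3KO mice 1 to 4, 0.301, 2.84, 2.24 and 1.14 in female WT, 2.13, 1.31, 3.53 and 2.47 in male Slfn3KO and 2.47, 2.52, 1.09 and 0.956 in male WT. The groups overlapped in both sexes, and female WT 1 was the lowest library. The pooled log2 fold change was 0.65 (SE 0.37), with an unadjusted p of 0.0968 by edgeR, and 0.38 (SE 0.47) without WT 3 and 4. Smoc2, a matricellular protein gene expressed by crypt base stem cells, was measured at 46.6, 45, 27.7 and 30.9 CPM in female Slfn3KO mice 1 to 4, 8.79, 24.8, 25.2 and 9.95 in female WT, 30.6, 25.4, 41.4 and 23.8 in male Slfn3KO and 41.1, 28.4, 10.7 and 10.3 in male WT. Female groups were separate, and male WT 1 was nearly as high as the highest male Slfn3KO library. Its pooled log2 fold change was 0.77 (SE 0.32) with all libraries and 0.42 (SE 0.33) without WT 3 and 4.

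Axin2, the scaffold of the beta-catenin destruction complex and a widely used reporter of Wnt signalling, differed from the other members in its pooled fold change. It was measured at 91.1, 64.4, 55.3 and 109 CPM in female Slfn3KO mice 1 to 4, 72.5, 86.3, 92.5 and 137 in female WT, 82.3, 91.8, 117 and 86.7 in male Slfn3KO and 100.5, 119.6, 74.4 and 73.6 in male WT. Groups overlapped in both sexes, and the highest library was female WT 4, which was low for most other members. In males Axin2 was lower in WT 3 and 4 than in all Slfn3KO libraries, as were most other members. The pooled log2 fold change was -0.12 (SE 0.17), with an adjusted p of 0.778 by edgeR's quasi-likelihood F test with Benjamini-Hochberg adjustment, and -0.11 (SE 0.17) without WT 3 and 4. Axin2 was thus the only member with a pooled fold change below 0 in all libraries.

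The ubiquitin ligase genes Rnf43 and Znrf3, which remove Frizzled receptors from the cell surface, were the other feedback genes. Rnf43 was measured at 32.7, 40.1, 31.1 and 33.5 CPM in female Slfn3KO mice 1 to 4, 23.4, 27.5, 30.5 and 28.4 in female WT, 42.6, 33.0, 36.2 and 29.6 in male Slfn3KO and 32.5, 33.3, 21.4 and 23.0 in male WT. Its range was narrow, with 5 of 8 WT libraries below the lowest Slfn3KO library, and it had the smallest unadjusted pooled p of the members. The pooled log2 fold change was 0.34 (SE 0.11), with an unadjusted p of 0.00571 and an adjusted p of 0.327 by edgeR's quasi-likelihood F test with Benjamini-Hochberg adjustment. Znrf3 ranged from 6.38 to 8.26 CPM in female Slfn3KO, from 2.89 to 6.17 in female WT, from 4.44 to 7.32 in male Slfn3KO and from 2.83 to 6.41 in male WT. Female groups were separate by a small gap and male groups overlapped. Its pooled log2 fold change was 0.59 (SE 0.20) and 0.45 (SE 0.21) without WT 3 and 4.

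Sox9, a transcription factor of crypt base and Paneth cells, was measured at 22.1, 20.8, 14.1 and 17.3 CPM in female Slfn3KO mice 1 to 4, 3.11, 13.2, 13.5 and 5.21 in female WT, 14.7, 9.64, 15.1 and 10.9 in male Slfn3KO and 13.2, 9.96, 5.58 and 5.28 in male WT. Lrig1, a receptor that restrains ErbB signalling and marks crypt stem and progenitor cells, was measured at 52.5, 53.5, 39.7 and 43.2 CPM in female Slfn3KO mice 1 to 4, 17.9, 27.8, 39.1 and 23.9 in female WT, 36.0, 31.8, 47.7 and 30.1 in male Slfn3KO and 46.4, 39.4, 23.9 and 20.03 in male WT. For both genes the female groups were separate and the male groups overlapped, with male WT 3 and 4 below all male Slfn3KO libraries. In Lrig1 the gap between the lowest female Slfn3KO library and female WT 3 was 39.7 against 39.1 CPM. The Slc12a2 gene, which encodes the basolateral sodium, potassium and chloride cotransporter of crypt cells, was measured at 167, 182, 119 and 142 CPM in female Slfn3KO mice 1 to 4, 28.3, 111, 109 and 58.4 in female WT, 153, 80.9, 178 and 90.1 in male Slfn3KO and 112, 101, 53.5 and 45.8 in male WT. Slc12a2 showed the same separation in females and overlap in males. Pooled log2 fold changes were 0.82 (SE 0.29) for Sox9, 0.48 (SE 0.20) for Lrig1 and 0.84 (SE 0.28) for Slc12a2. In the same order they were 0.61 (SE 0.34), 0.35 (SE 0.24) and 0.66 (SE 0.35) without WT 3 and 4.

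**Figure D1:**
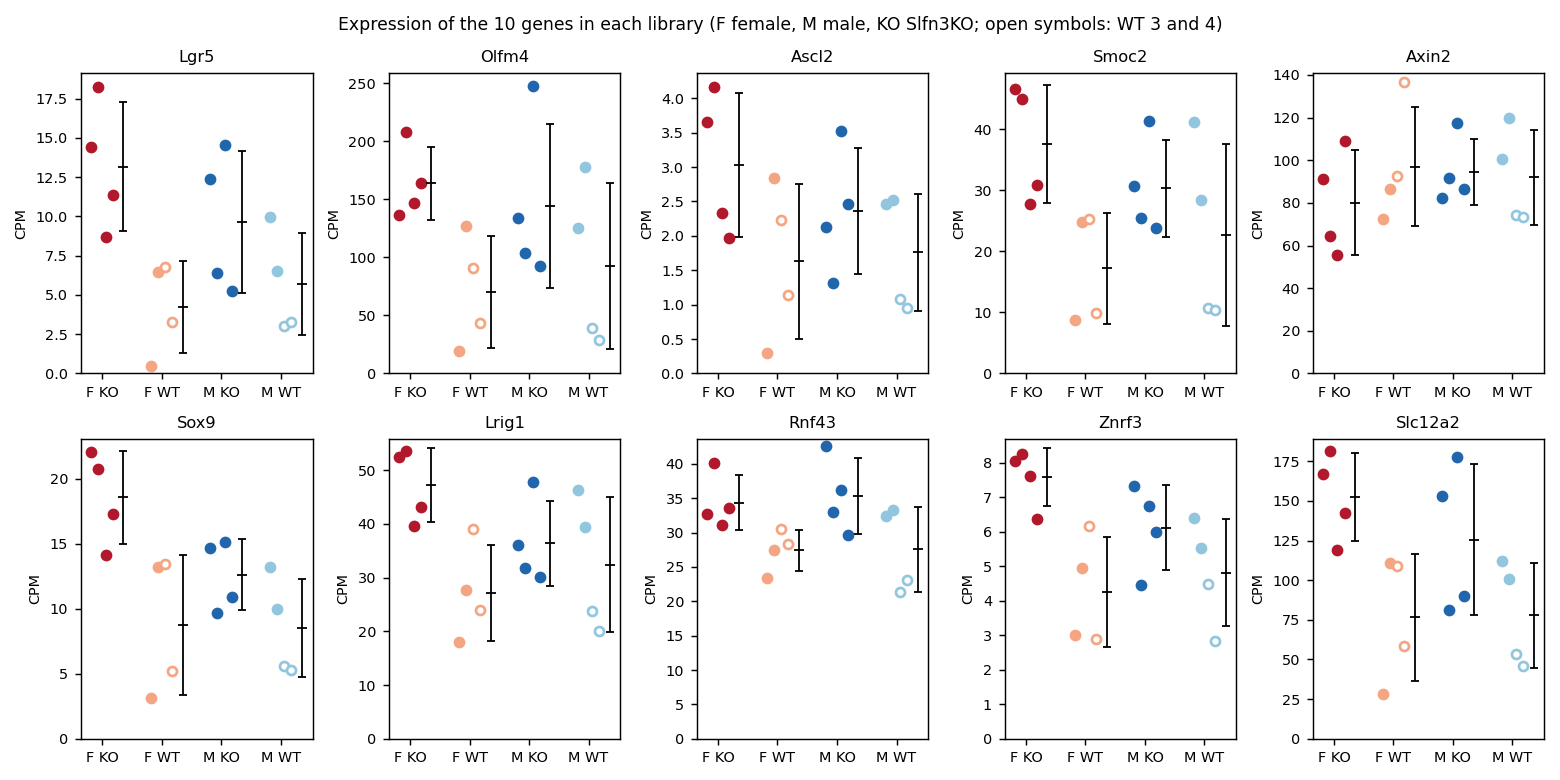
Expression of the 10 genes in CPM in each of the 16 libraries, by group, with 1 point per mouse, the group mean and its SD (n = 4) beside the points, and open symbols for the WT libraries 3 and 4. Female Slfn3KO points lie above all female WT points for 8 of the 10 genes, not for Ascl2 and Axin2, and male groups overlap for all 10.

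Comparing genotypes over all 16 libraries asks whether loss of Slfn3 goes with a different level of the stem cell and Wnt target genes. Of the 10 members, 9 had a fold change above 0, from 0.34 for Rnf43 to 1.19 for Lgr5 on the log2 scale, and Axin2 lay below 0. The median over the members was 0.71, beside 0.00 over all 14822 genes tested. None passed the threshold of an adjusted p under 0.05 and at least 1.5-fold by edgeR's quasi-likelihood test, so 0 of 10 were called, as were 0% of all genes. At an unadjusted p under 0.05, 8 of 10 were higher in Slfn3KO, beside 4.84% of all genes, and Ascl2 and Axin2 were not among them. DESeq2 called 0 of 10 members, beside 0.364% of all genes. It also had 8 higher at an unadjusted p under 0.05, beside 822 of 14822 genes.

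Leaving out the WT libraries 3 and 4 lowered the count at an unadjusted p under 0.05 from 8 to 1, Rnf43, beside 2.70% of the 15093 genes then tested, and 0 were lower, beside 3.1%. Rnf43 was then at 0.26 (SE 0.11), with an adjusted p of 0.761 by edgeR's quasi-likelihood F test with Benjamini-Hochberg adjustment. The median of the members was then 0.43, and 9 of 10 were above 0. Leaving out each of the 16 libraries alone gave medians between 0.57 and 0.85. The count of 8, beside 718 of 14822 genes, fell to 5 without any single one of female Slfn3KO 2, female WT 1, female WT 4, male Slfn3KO 3 or male WT 4. The genes higher in these fits were 421 of 14997, 543 of 15091, 457 of 15030, 532 of 14996 and 495 of 15058.

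In females alone log2 fold changes ranged from -0.28 for Axin2 and 0.32 for Rnf43 to 1.62 for Lgr5, with a median of 0.93 beside -0.01 over 14064 genes. All 4 female Slfn3KO libraries lay above all 4 female WT libraries for 8 of 10 members, beside 4.86% of all genes. By edgeR's quasi-likelihood test 0 of 10 were called, beside 0% of all genes, and 8 were higher at an unadjusted p under 0.05, beside 8.58%. Lrig1 had the lowest p in females, with a log2 fold change of 0.79 (SE 0.22), an unadjusted p of 0.00602 and an adjusted p of 0.236 by edgeR's quasi-likelihood F test with Benjamini-Hochberg adjustment. DESeq2 called 1 of 10, Lrig1, at 0.78 with an adjusted p of 0.0369, beside 3.60% of all genes.

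Without the libraries labelled female WT 3 and 4, the members at an unadjusted p under 0.05 in females numbered 4 of 10, beside 12.1% of 14634 genes. These were Lrig1, Znrf3, Rnf43 and Smoc2, and the median log2 fold change was 1.08. Only 2 female WT libraries remained, and 1 of them, female WT 1, was the lowest of the 16 libraries for 7 of the 10 genes. Lrig1 was then at 1.03 (SE 0.21) and Axin2 at 0.00. Leaving out each of the 8 female libraries alone gave medians between 0.70 and 1.25. The count of 8 in all female libraries, beside 1206 of 14064 genes, fell to 5 without female Slfn3KO 1, beside 559 of 14333, to 5 without female Slfn3KO 4, beside 1092 of 14357, to 3 without female Slfn3KO 2, beside 534 of 14261, and to 4 without female WT 4, beside 681 of 14261.

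In males alone all 10 members had log2 fold changes above 0, from 0.04 for Axin2 to 0.77 for Lgr5, with a median of 0.43 beside 0.00 over 14124 genes, but none of the 10 had separate groups, beside 1.13% of all genes. edgeR's quasi-likelihood test called 0 of 10, beside 0%, and 0 of 10 reached an unadjusted p under 0.05, beside 1.86% of genes that were higher. DESeq2 called 0 of 10, beside 0.0991%, and also had 0 at an unadjusted p under 0.05, beside 301 of 14124 genes higher and 408 lower. Leaving out each of the 8 male libraries alone gave medians between 0.25 and 0.72. The count at an unadjusted p under 0.05 was 3 without male WT 1, beside 331 of 14332 genes, 1 without male Slfn3KO 4, beside 275 of 14436, and 1 without male WT 2, beside 220 of 14374. With the replicate number as a block it was also 1, beside 479 of 14124 genes, namely Rnf43 at 0.38 (SE 0.13).

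Without the libraries labelled male WT 3 and 4, 5 of the 10 members were above 0 and 5 below, the median was -0.01, and 0 of 10 reached an unadjusted p under 0.05, beside 3.38% of 14551 genes higher and 3.76% lower. Lgr5 was then at 0.24 (SE 0.46), Lrig1 at -0.23 (SE 0.19) and Smoc2 at -0.19 (SE 0.25).

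Whether the effect of genotype differed between the labelled sexes was tested as an interaction, female minus male. Both labelled WT groups hold libraries 3 and 4, whose sex transcripts went against the label. The fit with all libraries therefore cannot decide whether the sexes differed. The difference of log2 fold changes was above 0 for 8 of 10 members and below 0 for Axin2 and Rnf43, with a median of 0.50 beside 0.01 over all genes. It was largest for Lgr5, at 0.87 (SE 0.82), with an unadjusted p of 0.308 by edgeR. No member was called by edgeR's quasi-likelihood test (0 of 10, beside 0%), 0 of 10 were above 0 at an unadjusted p under 0.05, beside 5.80%, and 0 of 10 below, beside 5.26%. DESeq2 called 0 of 10, beside 0.128%. Without the WT libraries 3 and 4, 3 of 10 were above 0 at an unadjusted p under 0.05, beside 14.4% of 15093 genes. That fit had 2 WT libraries of each label, with female WT 1 among them. The difference was then above 0 for 10 of 10, with a median of 1.02 beside -0.03 over all genes. Of the members 0 of 10 were then called, beside 2.38% of all genes. The 3 were Lrig1 at 1.27 (SE 0.30), Smoc2 at 1.34 (SE 0.53) and Znrf3 at 0.88 (SE 0.34). Leaving out female WT 3 alone gave 1 of 10, beside 1619 of 15004 genes, and leaving out male WT 4 alone 1 of 10, beside 1488 of 15058. Medians with each of the 16 libraries left out alone were between 0.24 and 0.73.

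**Figure D2:**
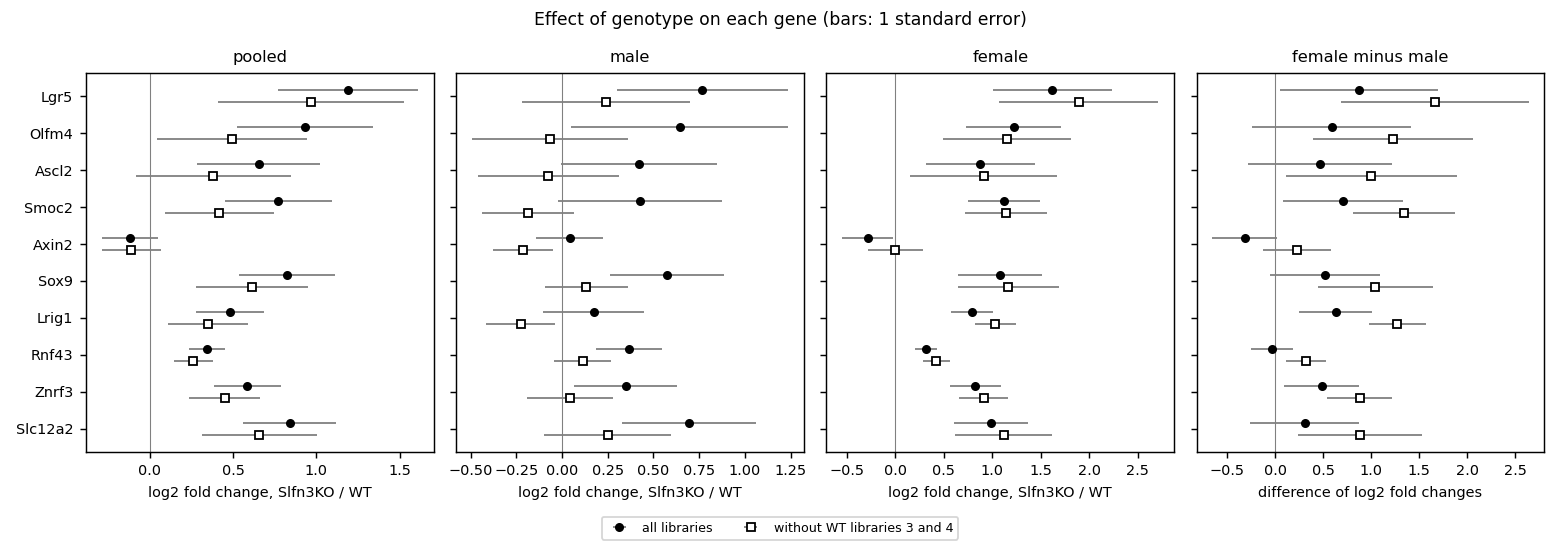
Log2 fold change of Slfn3KO over WT for each gene with 1 standard error, over all mice, in males, in females and as the difference female minus male, for all libraries (filled circles) and without the WT libraries 3 and 4 (open squares). In males the open squares lie on both sides of 0, with a median of -0.01 against 0.43 for the filled circles.

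Crypt content was read from Lyz1, the lysozyme gene of Paneth cells, which share the crypt base with the stem cells. Lyz1 was measured at 4351, 5035, 2476 and 3066 CPM in female Slfn3KO mice 1 to 4, 410.1, 1341, 2105 and 1033 in female WT, 2021, 2837, 1942 and 2561 in male Slfn3KO and 3248, 2736, 513 and 976 in male WT. It was lowest in female WT 1 and male WT 3 and highest in female Slfn3KO 2, and only the female groups were separate. The pooled log2 fold change of Lyz1 was 0.97 (SE 0.40) and its unadjusted p 0.0292, and in females it was 1.60 (SE 0.46) with an adjusted p of 0.236 by edgeR's quasi-likelihood F test with Benjamini-Hochberg adjustment. The male value in all libraries was 0.33 (SE 0.52). Without WT 3 and 4 the pooled value was 0.68, the male value -0.35 and the female value 2.07. Lyz1 and its neighbour Lyz2 are near-identical copies, so the division of reads between them is uncertain. As counted, Lyz2 ran from 12.5 to 58.8 CPM in Slfn3KO and from 15.1 to 180 CPM in WT, highest in male WT 3.

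Across the 16 libraries 9 of the 10 members correlated with Lyz1 in log2 CPM at an adjusted p under 0.05, in 10 relations tested by two-sided permutation. Pearson's r ran from 0.782 for Znrf3 to 0.899 for Smoc2, and Axin2 was the exception. The same 9 were above 0 at an unadjusted p of r under 0.05, beside 20.3% of the 14821 genes other than Lyz1 above 0 and 14.9% below, and 3.14% of those genes had an r at least that of Znrf3. By rho 9 of 10 were above 0 at an unadjusted p under 0.05, beside 17.4%. For Smoc2 r was 0.899 (permutation p = 1e-05, the smallest that the resamples can give, adjusted p = 3.3e-05) and Spearman's rho 0.800 (permutation p = 0.000330, adjusted p = 0.00165). Lgr5 had an r of 0.861 (permutation p = 1e-05, adjusted p = 3.3e-05) and a rho of 0.700 (permutation p = 0.00341, adjusted p = 0.0102). In bulk RNA, fewer crypt cells and less RNA per crypt cell cannot be told apart.

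The transcription factor Ascl2 had an r of 0.823 with Lyz1 (permutation p = 0.000130, adjusted p = 0.000186) and a rho of 0.638 (permutation p = 0.00969, adjusted p = 0.0109). Znrf3, with the lowest r among the 9, had a rho of 0.674 (permutation p of r = 0.000560 and of rho = 0.00539, adjusted 0.000622 and 0.0102). For Axin2 r was 0.110 (permutation p = 0.682, adjusted p = 0.682) and rho 0.176 (permutation p = 0.510, adjusted p = 0.510). Over all libraries together the Wnt feedback scaffold therefore had no detectable relation to the Paneth cell gene, while the other feedback genes Rnf43 and Znrf3 did.

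Olfm4 gave an r of 0.844 with Lyz1 and a rho of 0.635 (permutation p = 0.000120 and 0.00984, adjusted p = 0.000186 and 0.0109). Sox9 gave 0.882 and 0.665 (permutation p = 3e-05 and 0.00615, adjusted p = 7.5e-05 and 0.0102). Lrig1 gave 0.887 and 0.8294 (permutation p = 1e-05 and 0.000180, adjusted p = 3.3e-05 and 0.00165). These are the crypt base and progenitor genes. Rnf43 gave 0.803 and 0.671 (permutation p = 0.000250 and 0.00551, adjusted p = 0.000312 and 0.0102). Slc12a2 gave 0.841 and 0.650 (permutation p = 0.0001 and 0.00802, adjusted p = 0.000186 and 0.0109).

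Without the 2 libraries farthest from the median of Lyz1, female WT 1 and male WT 3, r was between 0.639 for Rnf43 and 0.858 for Lrig1 among the same 9 genes and -0.211 for Axin2 (n = 14), and 9 of 10 kept an adjusted permutation p of r under 0.05, beside 18.6% of all genes above 0 at an unadjusted p. By rho only Smoc2 and Lrig1 did, at 0.714 and 0.749. The rho of the other 7 lay between 0.459 for Olfm4 and 0.591 for Znrf3 (n = 14). By rho 4 of 10 were above 0 at an unadjusted p under 0.05, beside 14.7% of all genes. Without the WT libraries 3 and 4, 9 of 10 passed by r and 0 of 10 by rho (n = 12), beside 20.6% and 13.5% of all genes above 0 at an unadjusted p, where the members numbered 9 and 2.

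Within WT mice alone 8 of 10 members passed by r with the exact permutation test (n = 8), beside 9.47% of all genes above 0 at an unadjusted p, with r up to 0.920 for Lrig1. Znrf3 had an r of 0.727 (adjusted exact permutation p = 0.0568) and Axin2 of 0.583 (adjusted exact permutation p = 0.133). By rho 8 of 10 also passed, beside 9.63% of all genes above 0 at an unadjusted p. Axin2 and Sox9 did not, both with a rho of 0.714 (adjusted exact permutation p = 0.0576). Znrf3 did, with a rho of 0.786 (adjusted exact permutation p = 0.0349). Within Slfn3KO mice alone 0 of 10 passed (n = 8), with r from -0.277 for Axin2 to 0.599 for Sox9 and none under an unadjusted exact permutation p of 0.05, beside 9.03% of all genes above 0 and 6.31% below. Lyz1 ranged from 1942 to 5035 CPM in Slfn3KO and from 410.1 to 3248 CPM in WT. Taken as deviations from the means of the 4 groups, 9 of 10 members passed, beside 16.2% of all genes above 0 at an unadjusted p, with r from 0.588 for Znrf3 to 0.830 for Smoc2, and Axin2 had an r of 0.431 (permutation p = 0.0946). Deviations sum to 0 within each group but were permuted across groups, so these permutation p-values can be too small.

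With log2 CPM of Lyz1 added to the fit as a covariate, 0 of 10 members reached an unadjusted p under 0.05 in any comparison by edgeR. Over all genes 170 of 14822 were higher and 133 of 14822 lower in the pooled fit, 325 of 14124 and 197 of 14124 in males, 733 of 14064 and 1276 of 14064 in females and 492 of 14822 and 373 of 14822 for the difference between the sexes. The median log2 fold change was 0.20 in the pooled comparison, 0.26 in males, -0.30 in females and -0.26 for the difference between the sexes. Axin2 moved away from 0, to -0.25 (SE 0.21) pooled and -0.51 (SE 0.48) in females. Lgr5 was at 0.44 (SE 0.37) pooled and -0.61 (SE 0.42) in females. Lyz1 itself separated the female groups, and the part of genotype in both measures was not tested.

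**Figure D3:**
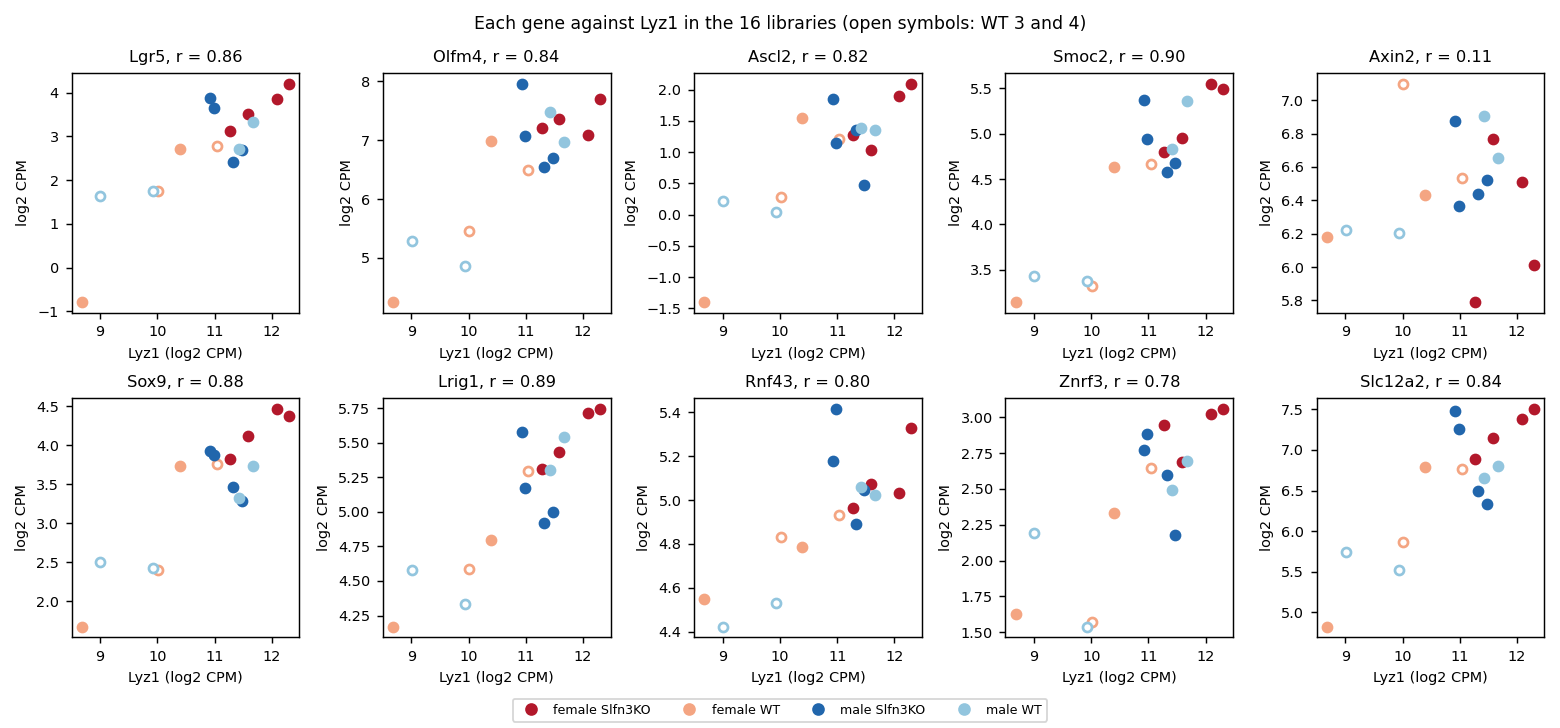
Log2 CPM of each gene against log2 CPM of Lyz1 in the 16 libraries, coloured by group, with open symbols for the WT libraries 3 and 4 and Pearson's r in each title. The lowest points in most panels are female WT 1 and the WT libraries 3 and 4 other than female WT 3, and Axin2 has an r of 0.110.

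Members were also compared with each other, in 45 pairs over the 16 libraries. All 36 pairs without Axin2 correlated at an adjusted permutation p under 0.05, by r and by rho, with r from 0.697 for Ascl2 with Rnf43 to 0.974 for Sox9 with Slc12a2 and a median of 0.906. Of all pairs of the 14822 genes tested, 4.68% had an r at least that of Ascl2 with Rnf43. Sox9 with Slc12a2 had a rho of 0.956, and permutation p-values of r and rho were 1e-05, the smallest that the resamples can give (adjusted p = 3e-05 and 5.6e-05). None of the 9 pairs with Axin2 passed (0 of 9), with r from -0.146 for Znrf3 to 0.184. Within Slfn3KO mice alone 17 of 45 pairs passed by the exact permutation test. The share of all gene pairs was not computed there, so this count has no background. Female WT 1 was the lowest of the 16 libraries for 7 of the 10 genes, and female Slfn3KO 2 the highest for 5.

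**Figure D4:**
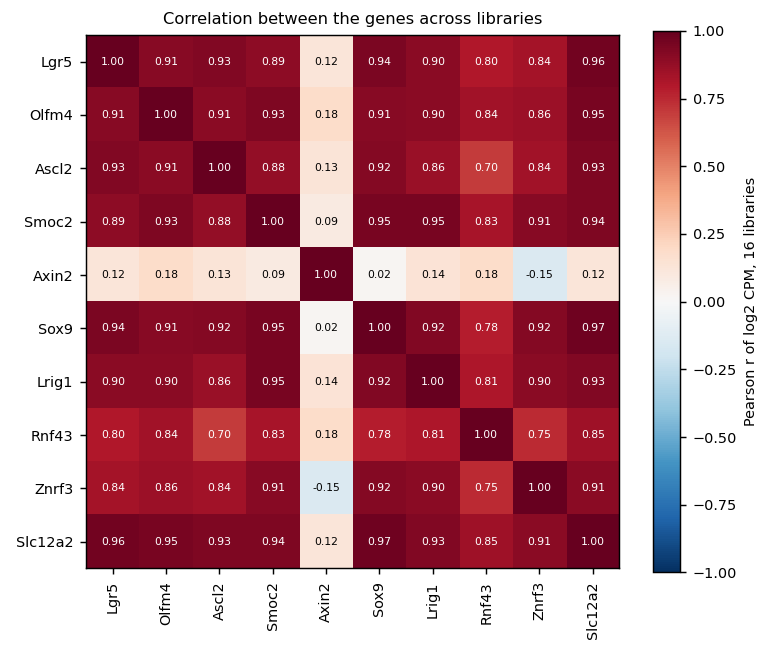
Pearson's r of log2 CPM over the 16 libraries for each pair of the 10 genes, from blue at -1 to red at 1. The Axin2 row and column stand between -0.146 and 0.184, and the other pairs between 0.697 and 0.974.

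Among the 14822 genes tested in the pooled comparison, those whose log2 CPM followed each member most closely over the 16 libraries were listed as a description. Lgr5 was followed by Smyd2 (r = 0.965), Slc12a2 (0.963) and Slc25a27 (0.962), and Olfm4 by Slc12a2 (0.949), Syde2 (0.945) and Cc2d2a (0.943). For Ascl2 these were Lipt2 (0.954), Smyd2 (0.953) and Igsf8 (0.953), and for Smoc2 Pkn3 (0.981), Gpld1 (0.974) and Engase (0.969). Sox9 had Ephb4 (0.983), the transcription factor gene Sox4 (0.981) and Cdo1 (0.975) nearest to it, and Slc12a2 had Ephb4 (0.975), Sox9 (0.974) and Sox4 (0.972). Sox4 was thus among the nearest genes of Sox9, Slc12a2 and Znrf3. Lrig1 was nearest to Plch2 (0.978), Cdca7l (0.976) and Knstrn (0.974), Rnf43 to the TGF-beta pseudoreceptor gene Bambi (0.920), Xylb (0.890) and Parl (0.890), and Znrf3 to Ttpa (0.942), Sox4 (0.937) and Cdc42ep1 (0.936). Axin2 had no gene as close, with BC016579 at 0.731, B230369F24Rik at 0.721 and Gm43305 at 0.676.

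Further genes of the crypt base stem cell, such as the surface receptors Ephb2 and Ephb3 and the RNA-binding protein gene Msi1, were taken as a list of 12 companions. At an unadjusted p under 0.05 by edgeR, 6 of 12 were higher and 0 lower in the pooled comparison, beside 4.84% and 7.1% of all genes, with a median log2 fold change of 0.45. The counts were 6 and 0 in females (median 0.70), beside 8.58% and 8.56%, and 0 and 0 in males (median 0.32), beside 1.86% and 1.98%. The companions had, once WT 3 and 4 were left out, 2 of 12 higher and 0 lower (median 0.44) pooled, beside 2.70% and 3.1%, 9 of 12 higher and 0 lower (median 0.95) in females, beside 12.1% and 11.8%, and 0 of 12 higher and 0 lower (median 0.03) in males, beside 3.38% and 3.76%. The counts of the lists below stand against the same shares. Vdr, the vitamin D receptor gene that enterocytes also express, was the most abundant at a mean of 500.2 CPM. Its pooled log2 fold change was 0.12 (SE 0.12), or -0.01 without WT 3 and 4. Msi1 had the largest pooled change of the list, 0.79 (SE 0.41), or 0.42 without WT 3 and 4. Among 6 genes of reserve or injury-associated stem cells, 1 was higher and 1 lower pooled, and 0 of 6 higher and 0 lower (median 0.18) without WT 3 and 4. Clu, a gene of the injury response that was both the most abundant and the most changed, was at -2.37 (SE 0.93). It was at -0.07 pooled, 2.51 in males and -1.60 in females without WT 3 and 4.

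Of 10 Wnt ligands and R-spondins 5 passed the filter on low counts. Wnt3, the ligand made by Paneth cells, was the most abundant at a mean of 3.37 CPM, was the 1 gene of the list higher at an unadjusted p under 0.05 and had a pooled log2 fold change of 1.05 (SE 0.34, unadjusted p = 0.00678 by edgeR), or 0.81 without WT 3 and 4. The list had 0 of 5 higher and 0 lower (median 0.21) pooled without WT 3 and 4. Stromal R-spondins had few counts, with Rspo2 at 0 in 10 libraries, Rspo1 at 0 in 3 and Rspo3 at 0 in 3, and Wnt9b was at 0 in 3 and Wnt2b in 1. Of 11 receptor genes 1 was higher and 0 lower (median 0.15), and without WT 3 and 4 the list had 0 of 11 higher and 0 lower (median 0.12) pooled. Fzd5, a Frizzled receptor of the epithelium, was the most abundant of them at 194 CPM and at 0.15 (SE 0.08), and Fzd2 had the largest change at 0.61 (SE 0.39).

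Cytoplasmic and nuclear components of the pathway had 0 of 18 higher and 3 lower pooled (median -0.06, 13 of 18 below 0), beside 4.84% and 7.1% of all genes. In females 0 were higher and 4 lower (median -0.15, 16 of 18 below 0), beside 8.58% and 8.56%. In males 10 of 17 were above 0, with 0 of 17 higher and 0 lower (median 0.03) at an unadjusted p under 0.05. Leaving out WT 3 and 4 gave 0 of 18 higher and 0 lower (median -0.02) pooled, 0 of 18 higher and 4 lower (median -0.18) in females and 1 of 18 higher and 0 lower (median 0.13) in males, where 16 of 18 were above 0. Ctnnb1, which encodes beta-catenin, was the most abundant at a mean of 1166 CPM and at -0.11 (SE 0.10). Lef1, a nuclear partner of beta-catenin that lymphocytes also express, had the largest change at -1.78 (SE 0.63), and without WT 3 and 4 it was at -0.45 pooled, 0.81 in males and -1.33 in females. Of 11 inhibitors and feedback genes, 8 passed the filter and 0 were higher or lower at an unadjusted p under 0.05 (median 0.44), and without WT 3 and 4 there were 1 of 10 higher and 0 lower (median 0.32) pooled. Kremen1, a Dickkopf receptor gene, was the most abundant at 16.6 CPM and at 0.07 (SE 0.07). Apcdd1, a Wnt inhibitor, had the largest change at 1.17 (SE 0.55), or 0.78 without WT 3 and 4. By sex Apcdd1 was at 2.06 in males and 0.23 in females, or 1.84 and -0.15 without WT 3 and 4. Dkk2 was at 0 in 9 libraries and Notum in 2.

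Other Wnt target genes, 11 of 12 tested, had 4 higher and 2 lower pooled (median 0.38), and 5 higher and 2 lower in females (median 0.67), with 0 of 10 higher and 0 lower (median 0.24) in males. Most genes of this list were also in the lists of companions, components or inhibitors above. Its counts therefore partly repeat theirs and are not separate results. With WT 3 and 4 left out there were 1 of 12 higher and 0 lower (median 0.43) pooled, 7 of 12 higher and 1 lower (median 1.02) in females and 0 of 11 higher and 0 lower (median 0.18) in males. The cell cycle gene Ccnd1 was the most abundant, with a log2 fold change of 0.98 (SE 0.24) in females and -0.21 in males. The interaction for Ccnd1 was 1.19 (SE 0.47), with an unadjusted p of 0.0219 and an adjusted p of 0.441 by edgeR's quasi-likelihood F test with Benjamini-Hochberg adjustment. Without WT 3 and 4 Ccnd1 was at 1.17 in females, -0.61 in males and 1.79 for the interaction. Lef1, described above, also had the largest pooled change of this list, at -1.78 (SE 0.63). No gene of these Wnt and stem cell lists was called by edgeR's test in all libraries. The same test of the difference between the sexes without WT 3 and 4 called 2 companions, 1 of the ligands and R-spondins, 1 receptor and 2 of the other targets, beside 2.38% of all genes. A gene in more than 1 list is counted in each.

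Markers of other cell types were summed in each library to show what else moved with the members. Paneth markers summed to 12902, 15709, 7435 and 9584 CPM in female Slfn3KO mice 1 to 4, 1346, 3920.0, 6795 and 2647 in female WT, 5355, 7674, 6663 and 7009 in male Slfn3KO and 8925, 6483, 1412 and 2472 in male WT. They were highest in female Slfn3KO 2 and lowest in female WT 1 and male WT 3. Male Slfn3KO 3, where the summed level of the members was highest, was at 6663 CPM. Of 11 Paneth genes, several of them defensins with near-identical copies, 9 were higher and 0 lower pooled at an unadjusted p under 0.05 by edgeR (median 1.07), 11 in females (median 1.62) and 0 in males (median 0.44). Without WT 3 and 4 the pooled count was 3, beside 2.70% of all genes, the female count was 11 (median 2.09), beside 12.1%, and in males 0 were higher and 1 lower (median -0.25), beside 3.38% and 3.76%. Lyz1 was the most abundant, and Ang4, an antimicrobial angiogenin, had the largest pooled change at 1.4 (SE 0.37), or 1.04 without WT 3 and 4. No Paneth marker was at 0 in any library, and the part of Paneth cell content in the members' differences was not tested beyond the Lyz1 covariate.

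Villus enterocyte markers summed to 22221, 17134, 39927 and 36701 CPM in female Slfn3KO mice 1 to 4, 83962, 48494, 28243 and 44740.3 in female WT, 41150.4, 61017, 40659.9 and 70142 in male Slfn3KO and 48197, 58740.2, 32791 and 60739 in male WT. The sum was highest in female WT 1, where most members were lowest, and lowest in female Slfn3KO 2, where most members were high. All 12 genes had a pooled fold change below 0 (median -0.45) with 0 at an unadjusted p under 0.05, and in females 3 were lower (median -1.10), while in males 7 of 12 were above 0, with 0 of 12 higher and 0 lower (median 0.03) at that p. Without WT 3 and 4 there were 0 of 12 higher and 2 lower (median -0.69) pooled, 0 of 12 higher and 6 lower (median -1.50) in females and 0 of 12 higher and 0 lower (median -0.01) in males. Anpep, an aminopeptidase of the brush border, was the most abundant, at -0.27 (SE 0.17) pooled. The lactase gene Lct had the largest pooled change, at -1.68 (SE 1.82), or -3.24 without WT 3 and 4, and varied from 0.414 to 1376 CPM between libraries. Lct was also both the most abundant and the most changed of 7 markers of the proximal small intestine, which had 0 higher and 0 lower pooled and summed to 128, 110.3, 219 and 154 CPM in female Slfn3KO mice 1 to 4, 1714, 464, 40.1 and 139 in female WT, 256, 629.6, 266 and 1249 in male Slfn3KO and 245, 726, 69.3 and 586 in male WT. Of 6 distal markers 0 were higher and 1 lower, with Fabp6, the ileal bile acid binding protein gene, the most abundant at -0.24 (SE 0.42) and the vitamin B12 receptor gene Amn the most changed at -0.31 (SE 0.22), against 0.18 and -0.50 without WT 3 and 4. The proximal list had 1 of 7 higher and 1 lower (median -0.96) and the distal list 0 of 6 higher and 0 lower (median 0.09) pooled without WT 3 and 4. The part of position along the gut in the members' values was not tested.

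Proliferation genes differed in sign between the labelled sexes. All 15 had fold changes above 0 in females (median 0.66, 7 higher at an unadjusted p under 0.05) and all 15 below 0 in males (median -0.29, 0 lower). Leaving out WT 3 and 4 gave 12 of 15 higher and 0 lower (median 1.02) in females, beside 12.1% and 11.8% of all genes, and 0 of 15 higher and 11 lower (median -0.57) in males, beside 3.38% and 3.76%. For the difference between the sexes 5 of 15 were above 0 at an unadjusted p under 0.05 by edgeR (median 0.90), beside 5.80% of all genes, and 14 of 15 without the WT libraries 3 and 4, beside 14.4%. The pooled count was 0 of 15 in either direction (median 0.20), also without WT 3 and 4 (median 0.13). With Lyz1 as a covariate the signs did not differ, and all 15 were below 0 in females (median -0.41) and in males (median -0.35). In females 0 were then higher and 7 lower at an unadjusted p under 0.05, beside 733 and 1276 of 14064 genes. The summed level was 968, 819, 608 and 695 CPM in female Slfn3KO mice 1 to 4, 250.4, 505, 757 and 461 in female WT, 434, 417, 595 and 456 in male Slfn3KO and 737, 649.8, 601 and 312 in male WT. The topoisomerase gene Top2a was the most abundant and the mitotic checkpoint gene Bub1 had the largest pooled change, 0.32 (SE 0.25).

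B cell and follicle markers marked out the WT libraries whose sex transcripts went against the label. They summed to 30.9, 9.73, 54.4 and 14 CPM in female Slfn3KO mice 1 to 4, 20.2, 129, 431 and 564 in female WT, 3.82, 7.82, 83.3 and 135 in male Slfn3KO and 7.58, 5.93, 866 and 179.8 in male WT. The sums in female WT 3 and 4 and male WT 3 and 4 were the 4 highest of the 16. Of 10 genes 9 were lower pooled at an unadjusted p under 0.05 (median -2.96), beside 7.1% of all genes, and 0 without these 4 libraries (median 0.12). With all libraries 10 of 10 were lower in females at that p (median -3.52), beside 8.56% of all genes. In males 10 of 10 were below 0 and 0 lower at that p (median -2.34), beside 1.98%. Without these 4 libraries 10 of 10 were above 0 in males, with 0 of 10 higher and 0 lower (median 3.67) at that p. In females 10 of 10 were then below 0, with 0 of 10 higher and 0 lower (median -1.46) at that p. For the difference between the sexes 8 of 10 were then below 0 at an unadjusted p under 0.05, beside 12.5% of all genes. The complement receptor gene Cr2 was the most changed, at -3.15 (SE 1.23), and was at 0 in 2 libraries. It was at 0.34 pooled, 4.79 in males and -1.46 in females without WT 3 and 4. The part of lymphoid tissue in the low member levels of female WT 4 and male WT 3 and 4 was not tested.

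The remaining lists are given for the pooled comparison, beside 4.84% of all genes higher and 7.1% lower. Goblet markers had 1 of 7 higher (median 0.05), with the mucus protein gene Fcgbp the most abundant at -0.04 (SE 0.15) and the transcription factor gene Spdef the most changed at 0.30 (SE 0.10). Enteroendocrine markers had 1 of 8 higher (median -0.01), with neurotensin, Nts, the most abundant at -0.10 (SE 0.19) and proglucagon, Gcg, the most changed at 0.66 (SE 0.22). Tuft markers had 2 of 6 tested higher (median 0.46), with the ion channel gene Trpm5 the most abundant at -0.05 (SE 0.20) and Gfi1b the most changed at 0.73 (SE 0.38). Stromal and muscle markers had 0 of 10 in either direction (median 0.18), with vimentin, Vim, the most abundant at -0.49 (SE 0.23) and the endothelial gene Pecam1 the most changed at -0.83 (SE 0.46), against -0.04 and 0.35 without WT 3 and 4. The counts without WT 3 and 4 were 0 of 7 higher and 0 lower (median 0.04) for goblet, 0 of 8 higher and 1 lower (median -0.06) for enteroendocrine, 1 of 6 higher and 0 lower (median 0.57) for tuft and 2 of 10 higher and 0 lower (median 1.09) for stromal and muscle markers, beside 2.70% and 3.1% of all genes.

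**Figure D5:**
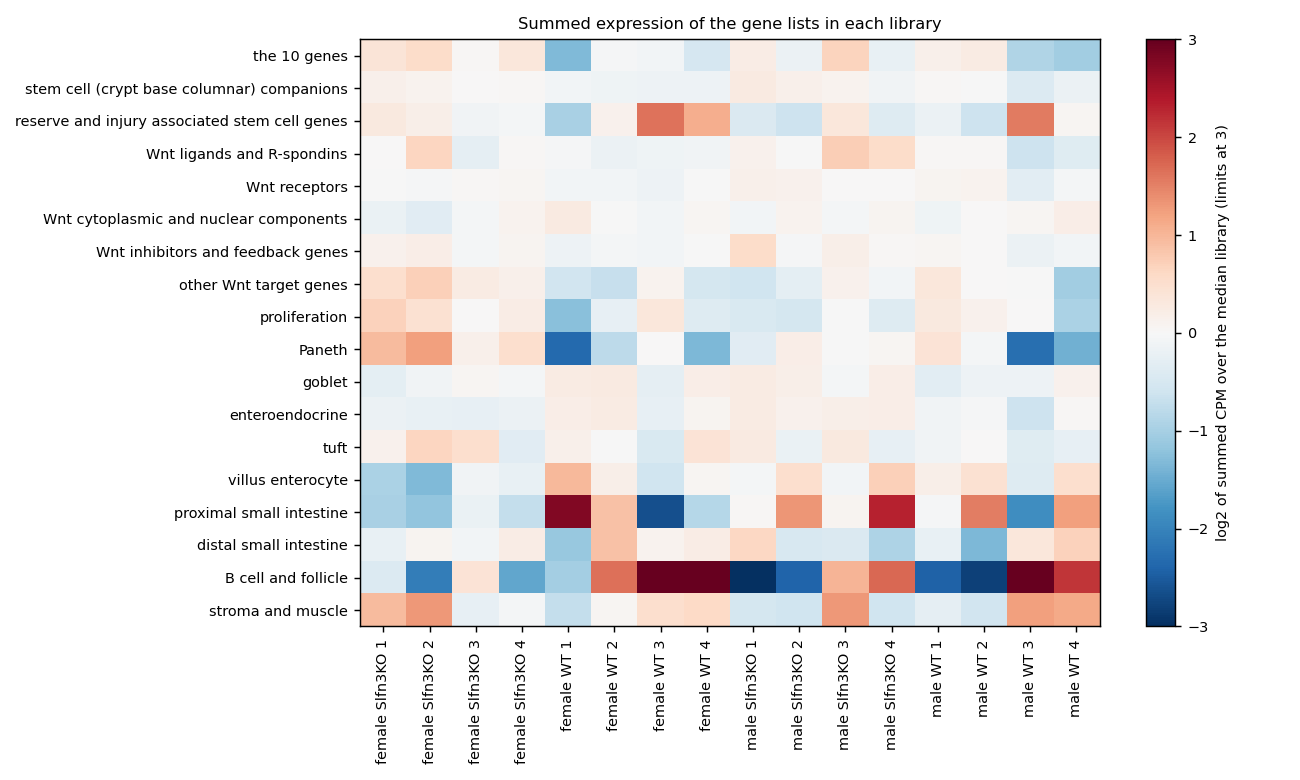
Summed CPM of each gene list in each of the 16 libraries, as log2 of the ratio to the median library, with the colour scale limited at 3. The 10 genes and the Paneth markers are low together in female WT 1 and male WT 3 and 4, and the B cell markers are highest in the WT libraries 3 and 4.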

How the data were processed

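RNA of the ileal mucosa was sequenced from 16 mice in 4 labelled groups. The authors used cutadapt for trimming and STAR for alignment to mm10, and deposited unnormalized counts per gene. Per the file headers these come from featureCounts 1.4.6 with reverse-stranded counting, while the methods name HTSeq. Symbols matched 45143 of 46078 identifiers.

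Fits were made in R 4.3.3 by edgeR 4.0.16, using TMM factors, filterByExpr by the 4 groups and the robust quasi-likelihood F test, adjusted over all genes tested. Standard errors are the log2 fold change over the square root of F. The pooled filter was first run by genotype. It was changed to the 4 groups after those results were seen, because an earlier analysis of these data gave a number of tested genes that only the 4 groups matched. Correlations used log2 CPM with a prior count of 2, 100000 resamples, or all 40320 pairings of 8 libraries, in scipy 1.17.1. RPKM was computed from CPM and the deposited exon lengths. The shares of all genes correlated with Lyz1, and of all pairs, were added after the results were seen. The main edgeR fits, the DESeq2 fits and the permutation test of r with 8 and 16 libraries were checked on simulated data. Spearman's rho and the other settings were not.

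Members and lists were chosen with earlier results of these data known. Named genes were the members, Lyz1, Slfn3, sex transcripts, most abundant or most changed genes of 17 lists, and the 3 nearest genes of each member. Others named were Lyz2, genes overlapping a member, Ephb2 and Ephb3 as examples of a list, and some list genes at 0 counts. Alternatives were RLE factors, DESeq2 1.42.0, other count filters, no sex covariate, all groups in one fit, a Lyz1 covariate, a prior count of 0.5, the replicate block, omission of WT libraries 3 and 4, and each library left out. Replicate numbers come from the sample titles and name different mice. Deviations of libraries with the same number correlated between 0.138 and 0.518 in males, where every pair was over 0.1, and between -0.362 and 0.143 in females, where 1 of 4 pairs was.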

Additional observations from a re-analysis of the deposited data

How the results depend on the processing

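Across all alternative settings and with each library left out, 0 of 10 members were called in the pooled, male and sex difference comparisons, and in females only DESeq2 called 1. With Lyz1 as a covariate the members at an unadjusted p under 0.05 numbered 0 pooled and 0 in females, and log2 fold changes turned sign for Ascl2 pooled (-0.013), Axin2 in males (-0.068), and in females Lgr5 (-0.61), Olfm4 (-0.25), Ascl2 (-1.07), Smoc2 (-0.075), Sox9 (-0.35) and Slc12a2 (-0.36). For the sex difference they turned for Lgr5 (-0.016), Olfm4 (-0.48), Ascl2 (-0.32), Smoc2 (-0.23), Sox9 (-0.11) and Slc12a2 (-0.29). Without the WT libraries 3 and 4 the counts at an unadjusted p under 0.05 were 1 pooled, 0 in males, 4 in females and 3 for the sex difference. Values of the other sign were then Olfm4 (-0.065), Ascl2 (-0.075), Smoc2 (-0.19), Axin2 (-0.21) and Lrig1 (-0.23) in males, Axin2 (0.00064) in females, and Axin2 (0.23) and Rnf43 (0.32) for the sex difference. The male count was 1 with all groups in one fit, beside 304 of 14822 genes higher. With the replicate block, the counts at an unadjusted p under 0.05 were 8 pooled, 1 in males, 8 in females and 0 for the sex difference. In the same order the genes higher were 689 of 14822, 479 of 14124, 649 of 14064 and 513 of 14822. The block changed no call. Leaving out each library gave counts of 5 to 8 pooled, 0 to 3 in males, 3 to 8 in females and 0 to 1 for the sex difference, log2 fold changes in males of -0.079 to 0.20 for Axin2 and -0.0056 to 0.39 for Lrig1, sex differences of -0.16 to 0.069 for Rnf43, and correlations of Axin2 with Lyz1 of -0.021 to 0.277. Among Slfn3KO libraries alone 0 members correlated with Lyz1, with an r of -0.277 for Axin2. In these libraries 17 pairs of members correlated, a count with no computed share of all gene pairs beside it. Without the 2 libraries farthest on Lyz1 the r of Axin2 was -0.211. The causes of these shifts were not tested.

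An alternative added after the results were seen was the low-count filter by genotype, which had been the first setting run for the pooled comparison. It gave 0 members called, beside 0 of 14013 genes, and 8 at an unadjusted p under 0.05, beside 654 of 14013 genes higher. The median log2 fold change was 0.70 against 0.71. Depth limits Ascl2, with as few as 6 counts in a library, Lgr5, with as few as 10, Slfn3, and list genes such as Rspo2 and Dkk2. The comparisons are also limited by 4 mice in a group, 4 WT libraries with sex transcripts against the label and bulk tissue.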
